A study of Mus musculus with 18 samples.

Results

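Colony-stimulating factors are the secreted proteins that make bone marrow cells survive, divide and mature into macrophages and granulocytes. Described here are 9 mouse genes of this system, taken by name from the 56748 genes of the count table: the receptors Csf1r, Csf2ra, Csf2rb and Csf3r, the ligand Csf1, and the transcription factors Spi1, Cebpa, Cebpb and Maf. All 9 were found once and all 9 passed the filter on low counts, which kept 15450 genes.

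The RNA came from bone marrow-derived macrophages (BMDMs) of C57BL/6J mice, either lacking the lipopolysaccharide receptor TLR4 (TLR4-KO, below KO) or wild type (WT). Marrow cells of both genotypes were matured with supernatant of the fibroblast line L929, the usual source of macrophage colony-stimulating factor for such cultures, and on day 7 were moved for 24 h to serum-free IMDM with an added agent. The agents were GM (GlcNAc-MurNAc, the sugar pair of bacterial peptidoglycan), MDP (spelled MurNAc-D-Ala-L-Gln in the labels, which is not the usual spelling of muramyl dipeptide) or water. The 6 groups, KO with GM, KO with MDP, KO with water, WT with GM, WT with MDP and WT with water, hold 3 libraries each, 18 in all. The series title names GM as an agonist of TLR4, so the comparisons ask how each agent acts with and without that receptor. The labels give no doses, do not say which stretch of Tlr4 is deleted, name no batches, and call the replicates biological, which may mean mice or only culture wells. P-values therefore measure the spread between these libraries, which may be technical.

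In macrophages the ligand M-CSF, encoded by Csf1, binds the receptor tyrosine kinase CSF1R, on which survival and proliferation of the cells depend. GM-CSF acts through a ligand-specific alpha chain (Csf2ra) and the common beta chain (Csf2rb), which signal through JAK2 and STAT5, and G-CSF acts through CSF3R, best known from neutrophils. PU.1 (Spi1), the C/EBP factors and MAF set and maintain the macrophage program: PU.1 and C/EBPα act early in the lineage, C/EBPβ is also induced by inflammatory signals, and MAF helps restrain self-renewal of mature macrophages.

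Total counts were 15532973 to 21128507 per library. Tlr4 was at 36.5 to 52.8 CPM (counts scaled to library size with TMM factors) in the 9 KO libraries, against 117 to 229 CPM in the 9 WT libraries. All 12 macrophage markers were detected in every library, with summed levels of 32332 to 37476 CPM in KO and 28980 to 35114 CPM in WT. WT water replicate 3 stood apart from the other WT water libraries, at -43.5 on the second principal component against -5.54 and -5.81. Maf and Csf3r were lower in it and in WT GM replicate 3 than in replicates 1 and 2 of the same groups. For the 9 genes, results that rest on these libraries are given with and without WT water replicate 3 where that changes a call. Other genes named below were not tested with a library left out. Without WT water replicate 3 the genes passing rose from 2258 to 7226 of 15450 for KO against WT in water. They rose from 1288 to 5479 for MDP against water in WT, and from 1232 to 4044 for the genotype difference in the MDP response. A call gained without it is thus shared with many genes. The biological coefficient of variation over all genes was 5.71% to 6.49% in the KO groups, 8.11% in WT MDP, 27.6% in WT GM and 35.5% in WT water.

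The core promoters of 5 of the 9 genes were in the RefSeq table used (build GRCm38.p6, 300 bases around the start site): Csf1, Csf2ra, Csf3r, Cebpa and Cebpb. They were searched on both strands for GAGGAA, the core letters of a PU.1 site, for TTGCNNAA, the core of a C/EBP site, and for TGCTGAC, letters of a MAF site. The promoters of Csf3r and Csf1 are shown because these genes differed most between the genotypes, in opposite directions, and that of Csf2ra because it held the letters GAGGAA at 2 adjacent places. Capitals mark GAGGAA. The Csf2ra promoter lies at chr19:61228369-61228668 on the minus strand, that of Csf3r at chr4:126024409-126024708 on the plus strand and that of Csf1 at chr3:107760420-107760719 on the minus strand, and each is printed in the direction of its gene.
Csf2ra: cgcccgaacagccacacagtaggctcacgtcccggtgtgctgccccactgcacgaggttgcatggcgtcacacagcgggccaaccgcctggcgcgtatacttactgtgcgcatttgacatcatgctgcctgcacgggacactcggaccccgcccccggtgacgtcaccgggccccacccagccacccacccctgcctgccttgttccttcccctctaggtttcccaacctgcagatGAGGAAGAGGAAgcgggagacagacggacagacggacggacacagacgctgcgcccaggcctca
Csf3r: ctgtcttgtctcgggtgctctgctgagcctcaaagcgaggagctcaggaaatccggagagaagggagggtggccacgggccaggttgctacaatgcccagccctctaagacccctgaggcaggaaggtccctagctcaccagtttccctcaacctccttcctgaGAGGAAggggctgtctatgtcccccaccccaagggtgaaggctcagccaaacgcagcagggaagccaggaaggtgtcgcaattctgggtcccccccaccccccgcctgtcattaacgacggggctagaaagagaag
Csf1: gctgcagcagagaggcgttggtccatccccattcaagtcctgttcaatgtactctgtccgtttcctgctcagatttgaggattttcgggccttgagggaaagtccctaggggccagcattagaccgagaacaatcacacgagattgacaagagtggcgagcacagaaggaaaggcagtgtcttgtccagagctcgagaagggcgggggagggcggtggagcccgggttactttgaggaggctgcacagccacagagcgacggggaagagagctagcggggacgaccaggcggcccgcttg
GAGGAA occurred at 2 places in the Csf2ra promoter, at 1 in that of Csf3r and at 0 in those of Csf1, Cebpa and Cebpb. It occurs in 28.3% of the 32851 promoters of the table. TTGCNNAA, found in 10.8% of all promoters, and TGCTGAC, found in 4.67%, matched in 0 of the 5. These are matches of letters only.

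The deposited FPKM values, which are scaled to gene length, order the 9 genes within a group. Csf2rb had the highest level of the 9 in all 6 groups, at 266 ± 4.58 FPKM in KO water and 395 ± 54.1 FPKM in WT water (SD, n = 3 each). Csf1r came second in all 6 groups, at 196 ± 6.17 FPKM in KO water and 132 ± 17.3 FPKM in WT water, where its libraries overlapped those of Spi1 at 123 ± 6.25 FPKM. Spi1 came next in KO water at 110 ± 1.496 FPKM. In KO water Csf2ra (86.7 ± 3.60 FPKM), Cebpb (78.2 ± 17.99 FPKM), Cebpa (46.0 ± 3.29 FPKM) and Csf1 (29.9 ± 1.37 FPKM) followed, and the first pair overlapped. In WT water Cebpb, Csf2ra, Cebpa and Csf1 lay between 61.1 and 103 FPKM, and each overlapped the next. Maf and Csf3r were lowest in every group, with Maf at 13.2 ± 0.450 FPKM in KO water and 7.90 ± 5.23 FPKM in WT water, and Csf3r at 13.05 ± 1.03 FPKM in KO water and 3.28 ± 1.19 FPKM in WT water.

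**Figure D1:**
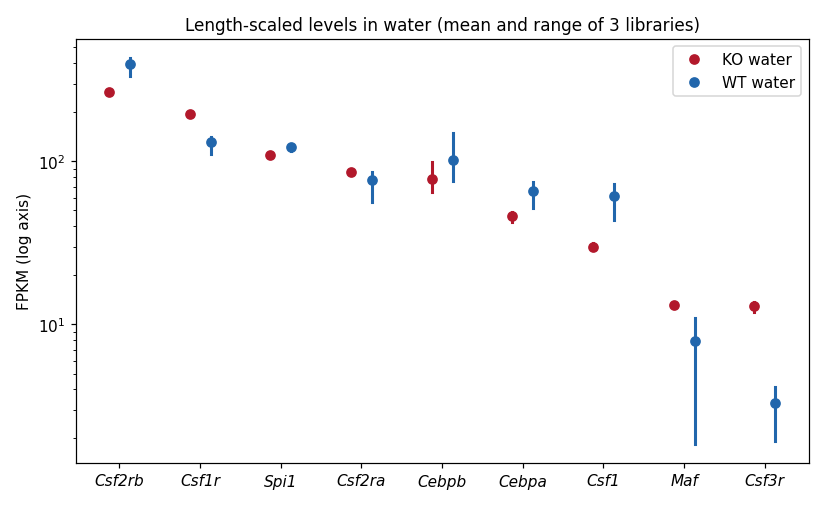
Mean length-scaled level (FPKM, log axis) of the 9 genes in KO water (red) and WT water (blue), with vertical lines from the lowest to the highest of 3 libraries. Csf2rb is highest at 266 FPKM in KO water and 395 FPKM in WT water, and Csf3r, at 13.05 FPKM in KO water and 3.28 FPKM in WT water, is lowest.

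The genotypes were set apart for 4 of the 9 genes. Csf1r and Csf3r were higher in all 9 KO libraries than in any of the 9 WT libraries, and Csf1 and Csf2rb were lower in all 9. Over all 15450 genes tested the 9 KO and 9 WT libraries did not overlap for 12.7%. In water, where the genotypes were tested directly with edgeR's quasi-likelihood test, 2 of the 9 genes were higher in KO, where 6.32% of all genes were, 2 were lower, where 8.30% were, and 5 did not pass. The median log2 fold change of the 9 genes was -0.17, and over all genes it was -0.03. In bulk RNA a difference in the number of cells of a type and in the RNA per cell cannot be told apart.

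With the agents, up to 4 of the 9 genes passed in KO cells, at log2 fold changes of -0.52 to 0.44. In WT cells at most 1 passed, Cebpb, at log2 -1.42 with MDP and 1.57 for GM against MDP. The biological coefficient of variation was 5.71% to 6.49% in the KO groups and 8.11% to 35.5% in the WT groups. The numbers that passed therefore do not compare the size of the responses. In KO cells GM gave 1 higher and 1 lower against water, with 3.61% of all genes higher and 4.23% lower. MDP gave 0 higher and 4 lower in KO, with 9.16% of all genes higher and 10% lower. GM against MDP gave 4 higher and 0 lower in KO, with 8.08% of all genes higher and 8.31% lower. The fit of all 18 libraries, which gives all groups 1 spread, called 0 of 9 in each of these KO comparisons. With GM in WT cells 0 of 9 passed, where 0.608% of all genes were higher and 0% lower (DESeq2 and limma-voom also called 0). An unadjusted p under 0.05 was reached by 0 of the 9, and by 975 of all 15450 genes. With MDP in WT cells 0 were higher and 1 was lower, with 4.61% of all genes higher and 3.72% lower. Without WT water replicate 3, 4 were higher and 2 lower, where 5479 of the 15450 genes tested passed. GM against MDP in WT cells gave 1 higher and 0 lower, with 5.59% of all genes higher and 4.41% lower. In WT the fit of all 18 libraries called 2 of 9 for MDP against water and 3 for GM against MDP. Over all genes it called 3810 and 3001. The median log2 fold changes of the 9 genes were -0.19 to 0.13 in these 6 comparisons, and those of all genes -0.04 to 0.02. As comparisons with water share the water libraries, and GM against MDP shares libraries with both, they are not independent of each other.

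**Figure D2:**
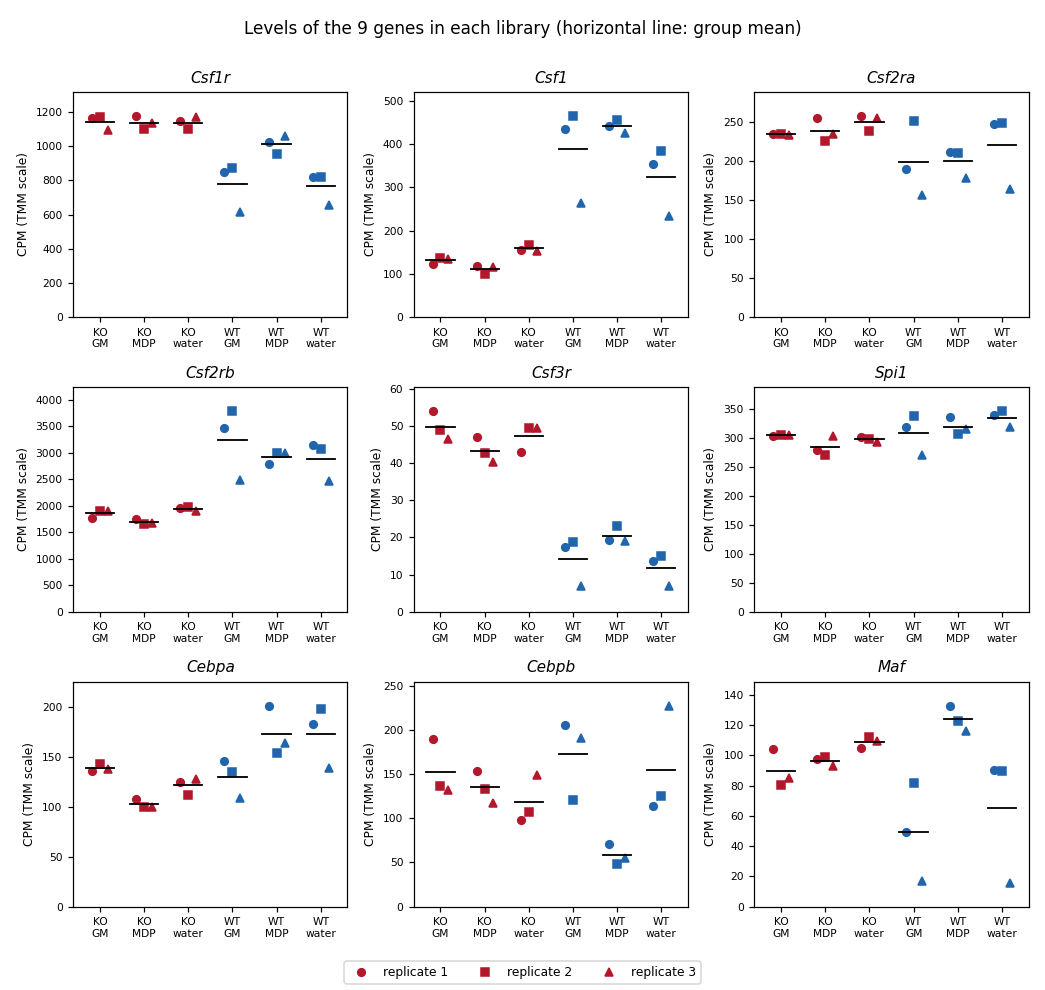
Level of each of the 9 genes (CPM on the TMM scale, linear axes from 0) in each of the 18 libraries, KO groups in red and WT groups in blue, with a horizontal line at each group's mean and a symbol for each replicate number. All 9 KO libraries lie above all 9 WT libraries for Csf1r and Csf3r and below them for Csf1 and Csf2rb, and the replicate 3 libraries of WT GM and WT water lie lowest of all 18 for Maf.

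Csf1r, the M-CSF receptor (ENSMUSG00000024621, GRCm39 chromosome 18, 61233670 to 61265221), had its highest levels in KO cells whatever the agent. It was at 1166, 1171 and 1095 CPM in the KO GM libraries, 1178, 1102 and 1136 CPM in KO MDP and 1146, 1100 and 1170 CPM in KO water. In WT cells it was at 850, 870 and 614 CPM with GM, 1024, 958 and 1058 CPM with MDP and 818, 821 and 655 CPM in water. The 3 KO groups overlapped one another, WT MDP lay next below them, and WT GM and WT water overlapped at the bottom. In water the KO mean was 1139 ± 35.5 CPM and the WT mean 765 ± 95.3 CPM (SD, n = 3 each), a log2 fold change of 0.57 (SE 0.12, adjusted p = 0.0241). The call was lost without WT water replicate 2 or any 1 of the KO water libraries (adjusted p = 0.0589 to 0.118), while in all settings tried the KO level was the higher one. In MDP the ratio of the KO to the WT mean was 1.124, against 1.47 in GM and 1.49 in water.

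With GM, Csf1r was level with water in KO (log2 0.01, 95% interval -0.07 to 0.09). In WT its log2 fold change with GM was 0.03, with a wide 95% interval of -0.42 to 0.47. With MDP, Csf1r was level with water in KO (log2 -0.00, 95% interval -0.09 to 0.09). In WT cells every MDP library lay above every water library (log2 0.41, 95% interval 0.11 to 0.70, adjusted p = 0.095), short of the threshold. It passed in the fit of all 18 libraries (adjusted p = 0.0172), with DESeq2 (0.0382), with limma-voom with a spread for each group (0.034) and without WT water replicate 3 (log2 0.31, adjusted p = 0.000313). The difference between the genotypes in the MDP response, KO minus WT, was -0.41 and did not pass either (95% interval -0.68 to -0.13, adjusted p = 0.0748), while it did with DESeq2 (0.0464) and without WT water replicate 3 (0.00156). GM was below MDP in every WT library (log2 -0.38, adjusted p = 0.135), which passed with limma-voom (0.00828), in the fit of all 18 libraries (0.0303) and without WT GM replicate 2 (log2 -0.47, adjusted p = 0.0276). Markers of osteoclasts, the M-CSF-dependent bone-resorbing relatives of macrophages, summed to 709 to 947 CPM in KO and 1214 to 1796 CPM in WT, with 6 to 8 of 8 detected. Most of that sum was Atp6v0d2, which was lower in KO water than in WT water (log2 -1.06), while Ctsk was higher (log2 2.46) and the other 4 of the 6 tested did not pass. Over all genes 6.32% were higher and 8.30% lower in KO water. The part of osteoclasts in the Csf1r difference was not tested.

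Csf1, which encodes M-CSF itself (ENSMUSG00000014599, chromosome 3, 107648364 to 107667785), went the other way. It was at 123, 135 and 135 CPM in KO GM, 117, 100 and 115 CPM in KO MDP and 156, 167 and 153 CPM in KO water. The WT libraries had 434, 465 and 265 CPM with GM, 442, 457 and 427 CPM with MDP and 355, 383 and 234 CPM in water. The lowest WT library, water replicate 3, still lay above the highest KO library. In water the log2 fold change was -1.03 (SE 0.19, adjusted p = 0.0181), from means of 159 ± 7.24 CPM in KO and 324 ± 79.6 CPM in WT (SD, n = 3 each). The call was lost without any 1 library other than WT water replicate 3 (adjusted p = 0.0518 to 0.0963), and without that one the log2 fold change was -1.22.

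Within KO cells both agents lowered Csf1. It fell to 131 ± 6.90 CPM with GM, against 159 ± 7.24 CPM in water (log2 -0.27, SE 0.05, adjusted p = 7.83e-05), and to 111 ± 9.29 CPM with MDP (log2 -0.52, SE 0.05, adjusted p = 1.41e-09). The GM and MDP libraries did not overlap each other, and GM was higher than MDP by log2 0.24 (SE 0.05, adjusted p = 0.00124). With limma-voom the fall with GM (adjusted p = 0.0914) and the difference between the agents (0.0862) did not pass, and in the fit of all 18 libraries the 3 adjusted p were 1, 0.191 and 0.735. In WT cells the same comparisons gave log2 0.26 for GM (95% interval -0.40 to 0.92) and 0.45 for MDP (95% interval 0.00 to 0.89, adjusted p = 0.192), and neither passed. Without WT water replicate 3 the WT rise with MDP passed (log2 0.26, adjusted p = 0.00128).

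The MDP response of Csf1 differed between the genotypes, by log2 -0.96 (KO minus WT, SE 0.21, adjusted p = 0.0168, edgeR on the 12 libraries). In that test 1 of the 9 genes was higher, where 3.34% of all genes were, and 1 was lower, where 4.63% were. The adjusted p was 0.0507 without KO MDP replicate 2 and below 0.05 in every other setting tried. For GM the difference was -0.53 (95% interval -1.19 to 0.12, adjusted p = 0.763), and 0 of the 9 genes passed, where 0.0129% of all genes were higher and 0.926% lower. Of the 9, 1 (Cebpa) had an unadjusted p under 0.05, as did 1210 of all 15450 genes, and DESeq2 called 0 of the 9. With the replicate number as a block in the fit, the difference passed for Csf1. Without both WT replicates 3, in GM and in water, the difference passed for Csf1 (log2 -0.56, adjusted p = 0.00246) and for Cebpa (log2 0.63, adjusted p = 0.00164). That setting was chosen after seeing the data. In it 1229 of all 15450 genes passed, against 145 in the main test. Markers of stromal cells, which also make M-CSF, summed to 9.13 to 23.2 CPM in KO, 75.3 to 121 CPM in WT GM, 19.6 to 27.9 CPM in WT MDP and 71.2 to 343 CPM in WT water, with 11 or 12 of 12 detected in every library. In KO water 0 of the 11 tested were higher and 10 were lower than in WT water, where 6.32% of all genes were higher and 8.30% lower. The sum in WT MDP overlapped that in KO water, at 18.04 to 23.2 CPM, and Csf1 was at 427 to 457 CPM in WT MDP and 153 to 167 CPM in KO water. These groups differ in both genotype and agent. The part of stromal cells in the Csf1 difference was not tested.

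Csf2ra, the GM-CSF-specific alpha chain (ENSMUSG00000059326, chromosome 19, 61212395 to 61216867), did not pass in any of the 9 comparisons. It was at 234, 235 and 233 CPM in KO GM, 255, 226 and 235 CPM in KO MDP and 258, 238 and 254 CPM in KO water. WT libraries had 190, 251 and 156 CPM with GM, 212, 210 and 178 CPM with MDP and 248, 249 and 164 CPM in water, so the genotypes overlapped with GM and in water, while with MDP the KO libraries lay above the WT ones. In water the log2 fold change of KO against WT was 0.18 (95% interval -0.23 to 0.59, adjusted p = 0.498). In KO cells the log2 fold changes were -0.09 with GM and -0.07 with MDP. Without WT water replicate 3 the WT level with MDP passed as lower than in water (log2 -0.31, adjusted p = 0.00137), as did the difference between the genotypes in the MDP response (log2 0.25, adjusted p = 0.0361).

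Csf2rb, the beta chain shared by the receptors for GM-CSF, IL-3 and IL-5 (ENSMUSG00000071713, chromosome 15, 78209952 to 78238047), was lower in KO cells. Its levels were 1773, 1907 and 1896 CPM in KO GM, 1751, 1664 and 1681 CPM in KO MDP and 1962, 1968 and 1903 CPM in KO water. They were 3472, 3788 and 2477 CPM in WT GM, 2792, 2997 and 2994 CPM in WT MDP and 3141, 3073 and 2457 CPM in WT water. All KO libraries thus lay below the lowest WT one, and the log2 fold change in water was -0.57 (SE 0.12, adjusted p = 0.0261). The call was lost without any 1 library other than WT water replicate 3 (adjusted p = 0.0694 to 0.13). In KO cells Csf2rb fell with MDP, to 1699 ± 46.2 CPM, against 1944 ± 35.9 CPM in water (SD, n = 3 each, log2 -0.19, SE 0.04, adjusted p = 0.000712), and the libraries did not overlap. GM was higher than MDP in KO by log2 0.13 (adjusted p = 0.0438), a call lost without KO GM replicate 2 or 3 or KO MDP replicate 2 or 3 (adjusted p = 0.12 to 0.204). In WT cells it did not pass, at log2 0.17 with GM (95% interval -0.32 to 0.66), 0.02 with MDP (95% interval -0.28 to 0.32) and 0.15 for GM against MDP.

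Csf2rb2 (chromosome 15), the mouse gene for a nearly identical beta chain that serves IL-3 alone, lies 20.03 kb from Csf2rb. Its counts were 36.1% to 46.5% of those of Csf2rb in the 18 libraries. How the authors' counting divided reads shared by the pair is not given in the sources used here, so each gene's own level is uncertain. Csf2rb2 was also lower in KO water, at 719 ± 10.53 CPM, against 1093 ± 60.4 CPM in WT water (log2 -0.60, SE 0.09, adjusted p = 0.00924). Its MDP response differed between the genotypes by log2 -0.40 (KO minus WT, adjusted p = 0.0237), where that of Csf2rb did not pass (log2 -0.21, adjusted p = 0.328).

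Csf3r, the G-CSF receptor (ENSMUSG00000028859, chromosome 4, 125918343 to 125938233), had the largest genotype difference of the 9 genes in water. It was at 54.0, 48.8 and 46.3 CPM in KO GM, 46.9, 42.8 and 40.2 CPM in KO MDP and 43.1, 49.5 and 49.3 CPM in KO water. It was at 17.3, 18.6 and 6.96 CPM in WT GM, 19.3, 23.2 and 18.9 CPM in WT MDP and 13.7, 14.9 and 7.02 CPM in WT water. Replicate 3 was the lowest library in all 3 WT groups, far below the others with GM and in water, and the highest WT library lay below the lowest KO one. In water the log2 fold change was 1.99 (SE 0.28, adjusted p = 0.00836), a 3.98-fold ratio of means. Without KO water replicate 2 or 3 the adjusted p was 0.0543 to 0.0551, and without WT water replicate 3 the log2 fold change was 1.73. The ratio of the KO to the WT mean was 3.48 in GM and 2.12 in MDP, which were not tested.

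Against water, neither agent passed in KO cells (log2 0.07 with GM and -0.13 with MDP, adjusted p = 0.627 and 0.247). GM was higher than MDP by log2 0.20 (adjusted p = 0.0409), a call lost with DESeq2 (adjusted p = 0.132), with limma-voom (0.213) and without KO GM replicate 1 or 2 or KO MDP replicate 2 or 3 (0.0833 to 0.274). In WT cells GM against water gave log2 0.27 (95% interval -0.78 to 1.32) and GM against MDP log2 -0.51 (95% interval -1.30 to 0.27), and all MDP libraries were above all water libraries (log2 0.78, 95% interval 0.11 to 1.46, adjusted p = 0.142), and without WT water replicate 3 the rise passed (log2 0.52, adjusted p = 0.00255). The difference between the genotypes in the MDP response was log2 -0.91 (adjusted p = 0.0873). It passed with DESeq2, without WT water replicate 2 (log2 -1.10, adjusted p = 0.0425) and without WT water replicate 3 (log2 -0.65, adjusted p = 0.000413). Csf3r lies 59.1 Mb from Tlr4 on the same chromosome. The 5 monocyte markers, led by Ly6c2, summed to 403 to 806 CPM in KO and 63.2 to 104 CPM in WT, with 4 or 5 detected. In water 3 of the 5 were higher in KO and 1 was lower, where 6.32% of all genes were higher and 8.30% lower. Of 11 neutrophil markers 7 to 10 were detected, and their sums of 2277 to 2519 CPM in KO and 1247 to 2558 CPM in WT consisted mostly of Mmp8. The calprotectin gene S100a8 was at 46.4 to 141 CPM in KO and 4.03 to 36.0 CPM in WT. In water 2 of the 8 neutrophil markers tested, Camp (log2 3.53) and Ngp (log2 2.60), were higher in KO and 0 lower, with a median of 2.12. The same shares of all genes, 6.32% and 8.30%, stand beside these counts. S100a9 had 460 to 1257 counts in the KO water libraries and 21 to 207 in those of WT water. Ltf had 24 to 47 in KO water and 9 to 18 in WT water, and Mpo 5 to 13 and 0 to 4. Of the other markers, Ly6g reached at most 0.244 CPM and Elane at most 0.179 CPM in any library. The part of monocytes and neutrophils in the Csf3r difference was not tested.

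Csf3, the gene for the ligand G-CSF, was counted at a low level and in some groups only. Its counts were 14, 12 and 7 in the KO GM libraries, 36, 27 and 28 in KO MDP and 19, 20 and 18 in KO water. In WT cells there were 55, 53 and 54 counts with GM, and 0 in every MDP and water library. With 3 counts over the group as the floor for a count of 0, Csf3 was at least 55.3-fold higher in WT GM than in WT water (edgeR adjusted p = 0.0252). On the same floor it was at least 18.4-fold higher in KO water than in WT water (adjusted p = 0.0112). In KO cells GM was lower than MDP by log2 -1.61 (adjusted p = 0.00276). The GM-CSF gene Csf2 had 0 to 11 counts per library and did not pass the filter.

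Spi1, which encodes PU.1 (ENSMUSG00000002111, chromosome 2, 90912735 to 90946101), had the narrowest range of the 9 genes over the 18 libraries. It was at 303, 305 and 305 CPM in KO GM, 280, 271 and 302 CPM in KO MDP and 302, 297 and 292 CPM in KO water, against 318, 338 and 270 CPM in WT GM, 336, 306 and 315 CPM in WT MDP and 339, 346 and 318 CPM in WT water. It passed in 0 of the 9 comparisons. In water all KO libraries lay below all WT libraries by a small margin (log2 -0.17, 95% interval -0.37 to 0.03, adjusted p = 0.201). Without WT water replicate 3 this passed (log2 -0.21, adjusted p = 0.000274), as did 7226 of the 15450 genes tested. GM against MDP in KO cells gave log2 0.10 (adjusted p = 0.158), and without KO MDP replicate 3 it passed (adjusted p = 0.0451). The 95% intervals of the GM and MDP responses stayed within log2 -0.05 to 0.11 and -0.16 to 0.03 in KO cells.

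Cebpa, the gene for C/EBPα (ENSMUSG00000034957, chromosome 7, 34818718 to 34821353), moved in opposite directions with the agents in KO cells. It was at 136, 143 and 138 CPM in KO GM, 108, 100 and 99.7 CPM in KO MDP and 125, 112 and 129 CPM in KO water. The 3 KO groups did not overlap, with GM highest, water between and MDP lowest. Against water it rose with GM by log2 0.19 (SE 0.05, adjusted p = 0.00769) and fell with MDP by log2 -0.24 (SE 0.05, adjusted p = 0.000795). GM was higher than MDP by log2 0.44 (SE 0.05, adjusted p = 3.53e-09). The rise with GM was lost without KO water replicate 2 or KO GM replicate 2 (adjusted p = 0.0584 to 0.119) and with limma-voom (0.177), and in the fit of all 18 libraries none of the 3 passed (adjusted p = 0.142 to 1).

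In WT cells Cebpa was at 147, 135 and 110 CPM with GM, 202, 154 and 164 CPM with MDP and 183, 198 and 139 CPM in water. With GM it was lower than in water by log2 -0.41 (95% interval -0.84 to 0.02, adjusted p = 0.837) and the libraries overlapped. With MDP its log2 fold change against water was -0.00, with a wide 95% interval of -0.40 to 0.40. GM was below MDP in every WT library (log2 -0.41, adjusted p = 0.109), which passed in the fit of all 18 libraries (0.0389) and with limma-voom (0.0415). KO water libraries lay below the WT water libraries (log2 -0.51, 95% interval -0.86 to -0.15, adjusted p = 0.0668). That difference passed in the fit of all 18 libraries (adjusted p = 0.00786), with DESeq2 (0.0278), with limma-voom (0.0419) and without WT water replicate 3 (log2 -0.65, adjusted p = 5.52e-12). The genotype difference in the GM response was log2 0.60 and did not pass (95% interval 0.18 to 1.03, adjusted p = 0.334). It passed without WT water replicate 3 (log2 0.74, adjusted p = 0.0175), where 557 of all 15450 genes did, against 145 in the main test.

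Cebpb, the gene for the inflammation-induced C/EBPβ (ENSMUSG00000056501, chromosome 2, 167530835 to 167532338), was the 1 member that passed with MDP in WT cells. In KO cells it was at 190, 136 and 133 CPM with GM, 154, 134 and 117 CPM with MDP and 97.98, 108 and 149 CPM in water, and the groups overlapped. In WT cells it was at 206, 121 and 192 CPM with GM, 71.0, 48.5 and 55.2 CPM with MDP and 114, 125 and 228 CPM in water, so that WT MDP lay below all other groups. Against water in KO cells GM gave log2 0.38 (95% interval -0.29 to 1.04), and GM against MDP gave 0.18. In water the genotypes differed by log2 -0.40 (95% interval -1.11 to 0.32), and none of these passed. The MDP response in KO was log2 0.20 (95% interval -0.37 to 0.77), and without KO water replicate 3 it passed (log2 0.39, adjusted p = 0.031). In WT cells the log2 fold change with MDP was -1.42 (SE 0.30, adjusted p = 0.0355). That call was lost without WT water replicate 2 or any 1 of the WT MDP libraries (adjusted p = 0.0663 to 0.165) and with limma-voom (0.0557). Without WT water replicate 3, the highest library, it held at log2 -1.03 (adjusted p = 0.00899). GM was higher than MDP in WT by log2 1.57 (SE 0.23, adjusted p = 0.0106), a call lost without WT MDP replicate 2 or 3 (adjusted p = 0.0653 to 0.0665).

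The genotypes differed in the MDP response of Cebpb by log2 1.61 (KO minus WT, SE 0.37, adjusted p = 0.0237). Without any 1 of 6 libraries (KO MDP replicates 1 and 2, KO water replicates 1 and 2, WT MDP replicates 2 and 3) the adjusted p was 0.0517 to 0.0652, with no filter on low counts it was 0.0854 and with limma-voom 0.0572. With MDP all KO libraries lay above all WT libraries, by 2.32-fold on the means, which was not tested. Cebpb is overlapped on the other strand by Peds1, whose counts, summed over the 18 libraries, were 174% of those of Cebpb, and the use of strand in counting is not given in the sources used here. Peds1 was at 175 to 208 CPM in KO and 238 to 340 CPM in WT, and within WT at 252 to 271 CPM with MDP and 244 to 340 CPM in water.

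Maf (ENSMUSG00000055435, chromosome 8, 116409681 to 116434533) varied more within the WT groups than between most groups. It was at 104, 80.5 and 84.7 CPM in KO GM, 97.3, 98.9 and 92.9 CPM in KO MDP and 105, 112 and 110 CPM in KO water. WT libraries had 49.2, 81.8 and 17.1 CPM with GM, 133, 123 and 116 CPM with MDP and 90.4, 89.9 and 15.54 CPM in water. Replicate 3 was at 26.1% of the mean of replicates 1 and 2 in WT GM and at 17.2% in WT water, whereas the WT MDP libraries lay close together. In KO cells Maf fell with MDP (log2 -0.18, SE 0.05, adjusted p = 0.0117), a call lost without KO water replicate 2 or KO MDP replicate 3 (adjusted p = 0.073 to 0.075) and with limma-voom (0.662). GM against water in KO gave log2 -0.28 (95% interval -0.50 to -0.06, adjusted p = 0.148), and it passed with DESeq2 (0.00934), with no filter on low counts (3e-06) and without KO GM replicate 1 (log2 -0.40, adjusted p = 1.42e-07). Without that library GM against MDP in KO passed too (log2 -0.22, adjusted p = 0.00598).

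No comparison of Maf within WT or against WT passed in the main test, and the intervals were wide (log2 0.93 for MDP against water in WT, 95% interval -0.45 to 2.30). GM was below MDP in every WT library (log2 -1.33, adjusted p = 0.114), which passed with limma-voom (0.026) and without WT GM replicate 3 (log2 -0.92, adjusted p = 0.0365). Without WT water replicate 3, Maf was higher with MDP in WT (log2 0.46, adjusted p = 1.6e-05), higher in KO than in WT water (log2 0.27, adjusted p = 7.24e-05) and differed in the MDP response between the genotypes (log2 -0.64, adjusted p = 2.42e-07).

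**Figure D3:**
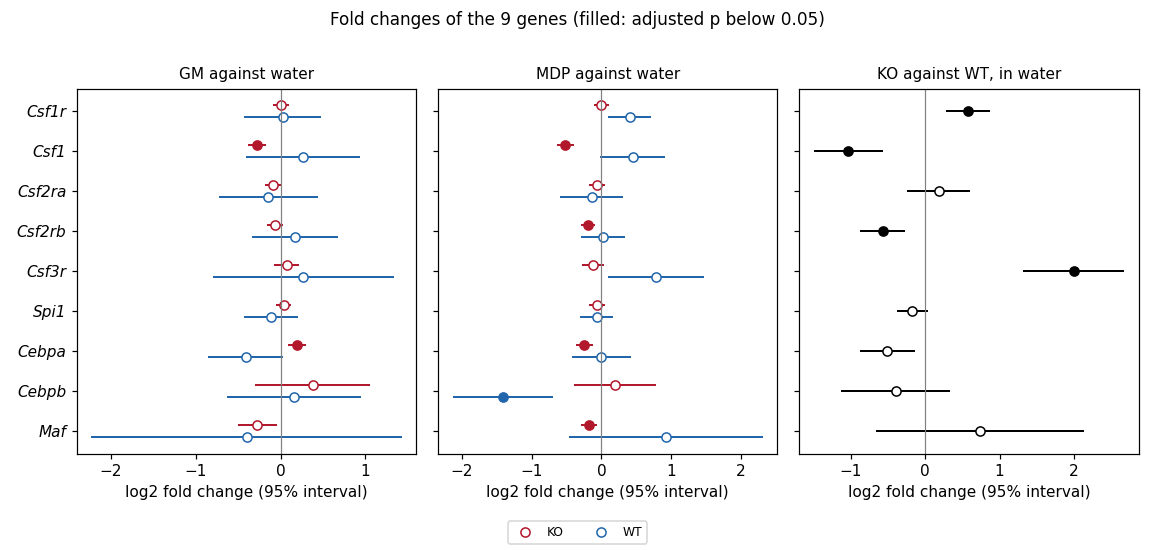
Log2 fold changes of the 9 genes with 95% intervals for GM against water (left), MDP against water (middle) and KO against WT in water (right), KO cells in red and WT cells in blue in the first and second panels. Filled circles have an adjusted p below 0.05. Each gene has a narrower interval in KO than in WT, with that of Cebpb the widest in KO, Csf3r has the highest genotype difference at 1.99 and Cebpb the only filled WT point at -1.42.

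Other ligands and partner receptors of this system were counted as a list of 12 genes, of which 7 passed the filter on low counts. The lists below were written with earlier results of these data known. Their counts stand beside the shares of all genes given above: 3.61% higher and 4.23% lower with GM in KO (0.608% and 0% in WT), 9.16% and 10% with MDP in KO (4.61% and 3.72% in WT), and 8.08% and 8.31% for GM against MDP in KO (5.59% and 4.41% in WT). In KO water against WT water 2 of the 7 were higher (Csf3 and Il3ra) and 2 were lower (Kitl and Csf2rb2), where 6.32% of all genes were higher and 8.30% lower, with a median log2 fold change of 0.21, against -0.03 over all genes. Il3ra, the IL-3 receptor alpha chain that pairs with the beta chains, was at 45.2 ± 2.20 CPM in KO and 28.6 ± 2.95 CPM in WT (log2 0.66, adjusted p = 0.013). Kitl, the stem cell factor gene, was at 0.764 ± 0.428 CPM in KO and 16.3 ± 2.68 CPM in WT (log2 -4.44, adjusted p = 0.0021). In KO cells Kit, the receptor of stem cell factor, fell with GM (log2 -0.83) and with MDP (log2 -0.58), where Flt3, the receptor of a dendritic cell growth factor, was higher (log2 0.82). With MDP in WT cells 1 was higher and 1 lower. Flt3 was at 15.95 ± 2.61 CPM with MDP and 2.39 ± 1.69 CPM in water (log2 2.74, adjusted p = 0.044), and Kitl fell by 1.09 on the log2 scale. Dendritic cell markers, Flt3 among them, summed to 771 to 855 CPM in WT MDP and 94.1 to 293 CPM in WT water. Most of the sum with MDP was Ccr7, which was higher (log2 2.73), as was Flt3, while Clec9a was lower (log2 -0.97), and the median of the 8 tested was -0.0085. Their part was not tested.

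Genes downstream of the receptors were counted as a list of 39, all of which passed the filter. In KO water 1 was higher and 11 were lower than in WT water, where 6.32% of all genes were higher and 8.30% lower, with a median log2 fold change of -0.19. Ccnd1 and Ccnd2, cyclins that M-CSF induces, were lower in KO. Ccnd1 was at 12.1 ± 0.899 CPM in KO water and 186 ± 137 CPM in WT water (log2 -3.95, adjusted p = 0.0245), and Ccnd2 at 19.5 ± 2.78 CPM in KO water and 135 ± 87.2 CPM in WT water (log2 -2.80, adjusted p = 0.0289). In WT water replicate 3 Ccnd1 was at 28.5 CPM and Ccnd2 at 35.6 CPM, against at least 175 CPM in replicates 1 and 2. Cish, a STAT5 target that damps cytokine receptor signalling, was lower in KO by log2 -2.16 (adjusted p = 0.0109).

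With MDP, 9 of the 39 were higher and 5 lower in KO cells, and 2 were higher and 5 lower in WT cells, with medians of 0.10 in KO and -0.11 in WT. Socs3, the feedback inhibitor of G-CSF and IL-6 receptors, was higher with MDP in KO, at 141 ± 8.11 CPM, against 74.9 ± 6.66 CPM in water (log2 0.91), as were Ccnd2 (log2 1.71) and Jak2 (log2 0.95). In WT cells Socs3 was at 11.7, 11.03 and 10.9 CPM with MDP, against 71.6, 62.3 and 76.9 CPM in water (log2 -2.65, adjusted p = 0.000772). Cish was at 9.02, 9.89 and 9.76 CPM with MDP in WT, against 120, 111 and 48.9 CPM in water (log2 -3.29, adjusted p = 0.00464). For both, the MDP and water libraries of WT did not overlap, and the same held for the adaptor gene Grb10 (log2 -2.85, adjusted p = 0.00313). The MDP response of 5 of the 39 was higher in KO than in WT and that of 1 was lower, where 3.34% and 4.63% of all genes were. Socs3 (log2 3.56), Cish (log2 3.41) and Grb10 (log2 2.76) had the largest such differences.

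GM against water gave 5 higher and 2 lower of the 39 in KO cells, where Ccnd2 (log2 -0.53) and Cish (log2 -0.52) were lower and Socs3 was higher (log2 0.20). In WT cells it gave 0 higher and 0 lower (6 had an unadjusted p under 0.05, as did 975 of all 15450 genes). GM against MDP gave 7 higher and 11 lower in KO, where Ccnd2 (log2 -2.23) and Jak2 (log2 -0.77) were lower and Ccnd1 was higher (log2 0.92), and 7 higher and 2 lower in WT, led by Socs3 (log2 3.26), Cish (log2 3.14) and Grb10 (log2 2.31). In the GM response, 0 of the 39 differed between the genotypes (9 had an unadjusted p under 0.05, as did 1210 of all 15450 genes).

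**Figure D4:**
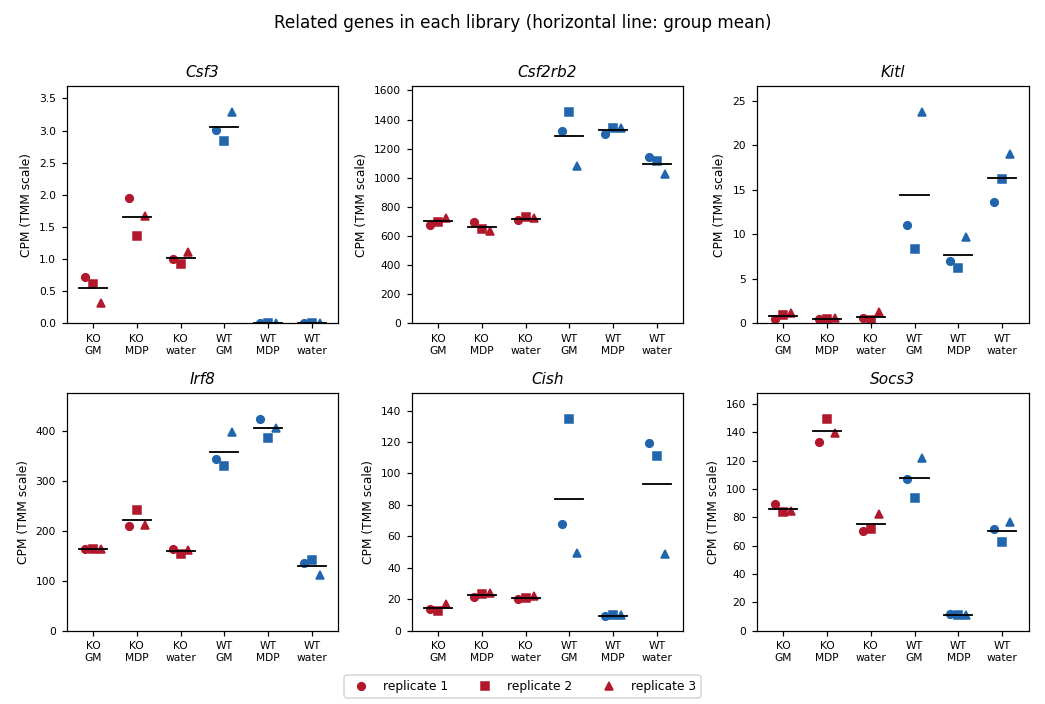
Level of 6 related genes (CPM on the TMM scale, linear axes from 0) in each of the 18 libraries, KO groups in red and WT groups in blue, with a horizontal line at each group's mean. Csf3 is at 0 in all WT MDP and WT water libraries, Kitl is lower in every KO library than in every WT library, Cish and Socs3 are lowest in WT MDP, and Irf8 has its highest group mean in WT MDP.

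The medians of 37 other transcription factors of the myeloid lineage were -0.16 to 0.11 over the 9 comparisons. In KO water 3 factors were higher and 5 lower than in WT water, not far from the shares of all genes (6.32% and 8.30%), with Cebpe, the granulocyte C/EBP factor, higher (log2 2.42) and Gfi1 (log2 -1.36) and Jun (log2 -0.93) lower. In KO cells GM gave 5 higher and 5 lower, led by Spic, a PU.1 relative (log2 1.25), and MDP gave 10 higher and 12 lower, with Nr4a1 higher (log2 0.94) and Pparg (log2 -0.80) and Egr2 (log2 -0.58) lower. In WT cells Irf8, which directs monocyte and dendritic cell fates, rose with both agents. It was at 343, 329 and 399 CPM with GM and 424, 387 and 406 CPM with MDP, against 135, 141 and 111 CPM in water (log2 1.47 with GM and 1.65 with MDP, adjusted p = 0.0195 and 0.00187). With GM it was the 1 factor of 37 that passed in WT, and with MDP 3 were higher, among them Cebpe (log2 2.65), and 3 lower, among them the inflammation-induced Cebpd (log2 -1.20). GM against MDP gave 14 higher and 4 lower in KO, with Spib (log2 1.02) and Spic (log2 0.74) higher and Irf4 (log2 -0.79) lower, and 7 higher and 3 lower in WT, with Gfi1 higher (log2 1.86) and Cebpe lower (log2 -1.52).

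Targets that PU.1 and the C/EBP factors are known to bind (22 genes, 21 passing the filter) were higher in KO water in 8 cases and lower in 2, where 6.32% of all genes were higher and 8.30% lower, with a median log2 fold change of 0.68. Lcn2, the lipocalin that withholds iron from bacteria (log2 5.19), the arginase gene Arg1 (log2 4.09) and the inducible nitric oxide synthase gene Nos2 (log2 3.44) led. In KO cells GM gave 5 higher and 2 lower, among them Il1b (log2 0.81) and Nos2 (log2 -0.82), and MDP gave 12 higher and 2 lower, led by Arg1 (log2 3.50), Il6 (log2 2.95) and Il1b (log2 2.32). In WT cells GM gave 4 higher and 0 lower, led by Il6 (log2 7.13), Il1b (log2 6.39) and Nos2 (log2 6.18), and MDP gave 5 higher and 0 lower, led by Arg1 (log2 3.65) and Lcn2 (log2 3.25). GM against MDP gave 2 higher and 11 lower in KO, led by Arg1 (log2 -3.44), and 7 higher and 0 lower in WT, led by Ptgs2, the inducible prostaglandin synthase gene (log2 4.97).

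Genes whose pattern was most like that of the 4 members with the widest range of group means were found by the root-mean-square difference of centred log2 levels over the 18 libraries, among 8755 genes with a mean of at least 10 CPM. For Csf3r they were Pira13 (0.19), Lpcat2 (0.20) and Lilra6 (0.24), where the range of Csf3r group means was 2.13. For Csf1 they were Mfhas1 (0.19), Epb41l1 (0.25) and Sulf2 (0.28). For Maf they were Tlr8 (0.14), Arhgap4 (0.20) and Pld4 (0.21), and for Cebpb Abcc4 (0.24), Adgrl2 (0.29) and Ankrd28 (0.30). The values are in log2 units and describe these 18 libraries, which share their groups.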

How the data were processed

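RNA of 18 libraries was sequenced from poly(A)-enriched directional libraries, per the labels' protocols. Reads were aligned to GRCm39 and counted, with HISAT2 2.0.5 and featureCounts 1.5.0-p3 named in the submitters' processing notes; settings and annotation release are not given in the sources used here. The deposited count table holds the authors' raw read counts per gene, which sum to 15532973 to 21128507 per library. The deposited FPKM table holds the authors' length-scaled values, equal to the count divided by gene length and by a library size that was 0.889 to 1.06 times the total count, and was used only to order genes within a group.

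Tests used edgeR 4.0.16 under R 4.3.3, on the counts as deposited. filterByExpr (minimum count 10) and TMM factors used all 18 libraries. The main test was a robust quasi-likelihood F test on only the libraries compared (6, or 12 for differences of responses), since the spread differed between groups. Within a comparison the groups still shared 1 spread per gene. The biological coefficient of variation was 5.71% in KO water and 35.5% in WT water. The main test used 1 mean per group, Benjamini-Hochberg adjustment over all 15450 genes and a threshold of 0.05. The test was checked on simulated counts with 1 spread for all groups, so that check does not cover groups of unequal spread. Alternatives were the fit of all 18 libraries, DESeq2 1.42.0, RLE factors, no low-count filter, limma-voom (limma 3.58.1) with a spread for each group, a replicate block and each library left out. Leaving out both WT replicates 3 was added after seeing the data. Each library was counted as 1 sample. Replicate libraries of a group differed by more than sampling noise, which does not tell mice from culture wells.

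The members, lists and tests were chosen with earlier results of these data known. All 9 members were tested in every comparison. Of each list the counts are given with at most 3 genes per comparison, those with the largest log2 fold change among passing genes whose libraries did not overlap. The paralog Csf2rb2 and the 3 genes most like each of 4 members are also named. Tlr4, Peds1, S100a8, S100a9, Ltf, Mpo, Mmp8, Ly6c2, Ly6g, Elane, Camp, Ngp, Ccr7, Clec9a, Ctsk and Atp6v0d2 were named after their values were seen. A few genes and 1 gene list are not reported here. Promoters are from RefSeq.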

Additional observations from a re-analysis of the deposited data

Results flagged for a closer look

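All the results below were picked out because the response to an agent differed between KO and WT cells by edgeR's test of the difference itself (KO minus WT, on the log2 scale, adjusted p below 0.05). Of the 9 genes, Csf1 (-0.96) and Cebpb (1.61) differed in the MDP response. Csf1 was lower with MDP than with water in 3 of 3 KO libraries and higher in 3 of 3 WT libraries, and the MDP and water libraries of Cebpb overlapped in KO and did not in WT, where the 3 MDP libraries were the lower ones.

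In the GM response 4 of 37 lineage transcription factors and 5 of 21 targets of PU.1 and the C/EBP factors differed. All had a lower response in KO, where over all genes 0.0129% had a higher one and 0.926% a lower one. Those named, at most 3 a list, were Il6 (-7.15), Nos2 (-7.00), Il1b (-5.58), Cebpe (-1.48), Irf8 (-1.43) and Ets2 (-0.59). Csf3 differed too, with an adjusted p of 0.000493 and no fold change given because WT water had 0 counts. Over all genes the MDP response was higher in KO than in WT for 3.34% and lower for 4.63%. Of 39 genes of receptor signalling 5 were higher and 1 lower, and of 37 lineage factors 2 were higher and 4 lower. Of 21 targets 1 was higher and 2 lower, and of 7 ligands and partner receptors 0 were higher and 1 lower. Those named, at most 3 a list, were Socs3 (3.56), Cish (3.41), Grb10 (2.76), Cebpd (1.43), Adgre1 (0.44), Csf2rb2 (-0.40), Ncf4 (-0.60), Irf8 (-1.18), Lcn2 (-1.97) and Cebpe (-2.53). Socs3 had the widest of these differences in the MDP response. It was higher with MDP in KO cells and lower in WT cells, and in both genotypes the MDP and water libraries did not overlap.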

How the results depend on the processing

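The numbers of the 9 genes that passed depended on the fit. In KO it was 2 for GM against water, 4 for MDP against water and 4 for GM against MDP, and 0 in each with all 18 libraries (with limma-voom, 0 for GM against water and 1 for GM against MDP). For MDP against water in WT it was 1, and 2 with all 18 libraries or DESeq2. For GM against MDP in WT it was 1, 3 with all 18 libraries and 4 with limma-voom. For the genotype difference in the GM response it was 0, and 2 without both WT replicates 3, an alternative chosen after seeing the data. For that in the MDP response it was 2, 4 with DESeq2 and 1 with limma-voom or no low-count filter. Leaving out 1 library at a time gave 1 to 3 for GM in KO, 2 to 4 for GM against MDP in KO, 0 to 6 for MDP in WT, 0 to 2 for GM against MDP in WT, 0 to 7 for KO against WT in water, 0 to 1 for the GM response difference and 0 to 6 for that of MDP. The highest of the 0 to 6 and 0 to 7 came without WT water replicate 3. Same-numbered libraries did not vary together in all pairs (r = -0.19, 0.48 and 0.47 for WT GM and water, and -0.04 to 0.11 elsewhere). These values do not settle whether the numbers mark pairs. With the replicate block the counts were 0 for MDP against water in WT, 2 for KO against WT in water (4 without the block), 1 for the GM response difference and 1 for that of MDP. Calls lost with it were Csf1r (adjusted p = 0.0802) and Csf2rb (0.0773) in KO against WT, Csf2rb for GM against MDP in KO (0.104), and Cebpb with MDP in WT (0.0799) and in the MDP response difference (0.0746). Those gained were Cebpb for GM against MDP in KO (0.0404) and Csf1 in the GM response difference (0.0392). Direction turned only for values that did not pass. Csf1r with MDP in KO was at 0.0077 with DESeq2 and 0.0017 with RLE factors, Csf1r for GM against MDP in KO at -0.0017 with DESeq2, and Cebpa with MDP in WT at 0.0057 with DESeq2, 0.0067 with limma-voom and 0.0062 with the replicate block. In the GM response difference Csf1r was at 0.00074 with RLE factors, Maf at -0.026 with limma-voom and Cebpb at -0.083 without both WT replicates 3. Over single libraries left out, the log2 values that turned ran as follows. In KO, Csf1r gave -0.018 to 0.037 with GM, -0.025 to 0.023 with MDP and -0.016 to 0.037 for GM against MDP, where Csf2ra gave -0.066 to 0.025 and Cebpb -0.0072 to 0.28. In WT, GM against water gave Csf1r -0.075 to 0.17, Csf2ra -0.35 to 0.00098, Cebpb -0.027 to 0.54 and Maf -0.98 to 0.0055, and MDP against water gave Cebpa -0.14 to 0.11 and Csf2rb -0.086 to 0.083. GM against MDP in WT gave Csf1 -0.34 to 0.025, Csf2ra -0.21 to 0.14 and Spi1 -0.12 to 0.040. The GM response difference gave Csf1r -0.16 to 0.082, Csf2ra -0.10 to 0.25, Csf3r -0.53 to 0.066, Cebpb -0.16 to 0.42 and Maf -0.28 to 0.70, and the MDP response difference gave Csf2ra -0.025 to 0.25 and Spi1 -0.043 to 0.043. Over all genes in KO, GM against water called 1212, 3 with all 18 libraries and 569 with limma-voom, MDP against water called 2963 and GM against MDP 2532, with 427 and 242 in the fit of all 18. In WT, GM against water called 94 genes, 729 with all 18 libraries, 356 with DESeq2, 173 with limma-voom, 166 with the block, 458 without both replicates 3 and 0 to 288 without 1 library. MDP against water in WT called 1288, and 3810, 2457 and 387 with all 18 libraries, DESeq2 and the block (187 to 5479 without 1 library). GM against MDP in WT called 1544, and 3001, 2618 and 2626 with all 18 libraries, DESeq2 and limma-voom (209 to 4477 without 1 library). KO against WT called 2258, and 5110, 3593 and 855 with all 18 libraries, DESeq2 and the block (329 to 7226 without 1 library). The response differences called 145 for GM (287 with all 18 libraries, 317 with DESeq2, 1229 without both WT replicates 3, 71 to 557 without 1 library) and 1232 for MDP (1962 with DESeq2, 585 with the block, 647 to 4044 without 1 library). The cause of these shifts was not tested.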
